A study of Homo sapiens with 12 samples.

Results

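Monosome footprints are the messenger RNA fragments that a single ribosome shields from nuclease, and they were counted here in cells given 1 µM girolline for 2 h and in cells given DMSO, its solvent, for the same time. The comparison uses 3 of the 12 libraries of the series, 1 library at 1 µM girolline and 2 libraries with DMSO. A further monosome library at 10 µM entered the fit, and its values are set beside those of the low dose. All of these cells were wild-type HEK293T Flp-In, a human embryonic kidney cell line that carries a recombination site for adding transgenes. The other libraries of the series, RNA-seq and disome footprints, list their transcripts under IDs of another kind and were not analysed here. Each dose therefore rests on 1 library, so the effect of 1 µM girolline and any trait of that library cannot be told apart.

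Girolline is a small molecule first isolated from a marine sponge, and the title of the series links it to eIF5A in a manner that depends on sequence context. eIF5A binds ribosomes that pause during elongation or at a stop codon and helps the peptide bond or the release reaction proceed. It acts once one of its lysines has been turned into hypusine, a modification made from the polyamine spermidine, so the factor and polyamine synthesis are tied together. Footprint counts follow both the amount of an mRNA and the ribosomes on it, and without RNA-seq values for the same IDs these cannot be told apart. In lysates of many cells, fewer cells that translate an mRNA and fewer footprints per cell cannot be told apart either.

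Of 227264 transcripts listed, 100283 had a coding length. Rows with identical counts were merged, which left 58798 rows with counts, of which 55409 passed the filter on low counts and were tested. The 1 µM library had a total count of 21570489, the lowest of the monosome libraries, against 29278822 and 34873134 in DMSO 1 and DMSO 2, and 38074691 at 10 µM. Values are given below as CPM, a count scaled to the total of its library with TMM factors. Neither the files nor the reference tables pair these IDs with genes, so names were recalled and kept only where the ID's coding length in the file equalled that of the recalled protein plus its stop codon. Of 415 recalled IDs in the files 394 met this, for 316 genes, of which 307 were tested. For 17 of the IDs, of 15 genes, the length had been seen before the name was entered. The length was therefore no independent check on these names, among them AMD1, RPL41, HMGN2, AHNAK and RNF213. Among markers of the kidney line, LIN28B had 135 counts at 1 µM, against 196 and 218 counts with DMSO, while SOX11 had 6, against 7 and 5, and NEFM at most 1 in any library. ALB, COL1A2, MYH7 and INS, markers of other cell types, had 0 counts at 1 µM and at most 5 in a DMSO library. The labels do not tell whether the DMSO libraries are separate cultures. The p-values thus measure only the spread within that pair, pooled mostly over all rows, which may be technical. The fit had 1 residual degree of freedom per row, against 115 prior ones taken from the other rows. A p-value or SE below therefore reflects little of the difference between the DMSO libraries in its own row.

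At 1 µM girolline, footprints rose on mRNAs of ribosomal proteins, on AMD1 of the polyamine pathway and on many rows with very short coding regions. They fell on some very long coding regions, on 3 of 12 heat shock chaperones and on 3 of 7 glycolytic enzymes. Nearly all of these changes were small. Of all rows of at least 100 CPM, 7.74% fell. The lists of very long proteins and glycolytic enzymes were made after values were seen, so their counts do not support a direction. By edgeR's quasi-likelihood test at an FDR of 0.05, 984 of the 55409 rows were called (1.78%), 580 of them higher at 1 µM (1.05%) and 404 lower (0.729%). The median log2 change was 0.41 among the rises and -0.35 among the falls, against -0.003 over all tested rows. In all 984, the 1 µM value lay outside the range of the DMSO pair, but so it did in most tested rows, above both DMSO libraries in 37.5% and below both in 36.9%, so this adds nothing to a call. The log2 difference of DMSO 2 over DMSO 1 had a median of -0.06 in the risen rows and 0.03 in the fallen ones, and its part in the calls was not tested. By the same edgeR test, 6643 of the 55409 rows had an unadjusted p under 0.05 in either direction. The unadjusted counts of gene lists below are to be read beside that number.

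Calls were much more frequent where counts were high. Among 1732 rows of at least 100 CPM, 13.3% rose and 7.74% fell, with median log2 changes of 0.29 and -0.25 among those called. Among 38991 rows under 10 CPM, 0.346% rose and 0.118% fell. At a mean of at least 100 CPM the median size of the log2 change, whatever its sign, was 0.12 between 1 µM and DMSO and 0.05 between the DMSO libraries.

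**Figure D1:**
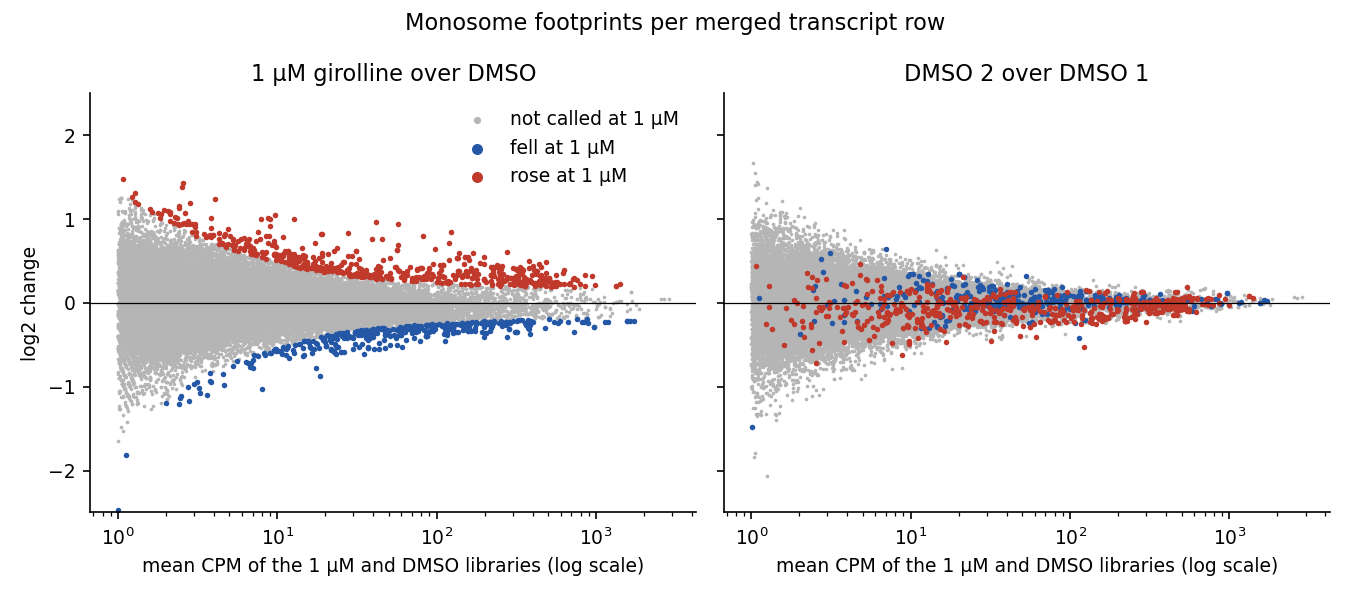
Each point is 1 merged transcript row of at least 1 CPM, 44789 in all. The x axis gives the mean CPM of the 1 µM and DMSO libraries on a log scale, and the y axis the log2 change of 1 µM girolline over DMSO (left) or of DMSO 2 over DMSO 1 (right), with the calls at 1 µM in red (rose) and blue (fell) in both panels. The called rows leave the grey cloud at smaller changes as CPM grows, and in the right panel the same rows lie around 0, with a median of -0.06 for the rises and 0.03 for the falls.

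Large changes were few. Among 16418 rows with a mean of at least 10 CPM, 16 were over 1.5-fold above both DMSO libraries at 1 µM (0.0975%) and 4 over 1.5-fold below both (0.0244%), and 0 passed 2-fold in either direction. Since that mean holds the 1 µM library, 2 of the 16 reached 10 CPM only through it, and by the mean of the DMSO libraries alone 14 rows of 16382 passed above and 4 below. Between the DMSO libraries, DMSO 2 was over 1.5-fold above DMSO 1 in 1 row and below it in 2, the largest difference being 1.55-fold. All 20 rows that passed the fold at 1 µM were also called by edgeR. Rows of 1 locus share reads, and when rows within 20 coding rows of each other in the table were counted once, the 16 came to 11 loci and the 4 to 3 loci. Of the 16 rows above DMSO, 12 had fewer than 100 codons, and 5 stood within 19 coding rows of each other.

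The rows with the largest rises mostly had very short coding regions. Called rows with at least 5 CPM on average were reduced to the row of lowest p in each block of 10 coding rows. That row rose in 271 blocks and fell in 199. The mean of 5 CPM holds the 1 µM library, so a rise near this bar can pass only through it. The called rows of these blocks had a median of 134 codons among rises and 479 among falls, where the row of lowest p in each of 6778 tested blocks of at least 5 CPM had a median of 378. Rises under 100 codons made up 95 of the 271 blocks (35.1%), and falls 13 of 199 (6.53%), against 490 of the 6778 tested blocks (7.23%). Ribosomal protein genes, of which 8 of 9 under 100 codons rose, were not taken out of these counts. The 12 largest rises lay between 0.80 and 1.05 on the log2 scale, and 9 of them had fewer than 100 codons. A short row can carry the reads of a longer row of its locus, and which of them changed was not tested. ENST00000409617.5, of 41 codons, had 451 counts at 1 µM, and nearby ENST00000630046.2, of 109 codons, had 457.

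ENST00000590864.2, a coding region of 39 codons, had 84.1 CPM at 1 µM, against 45.5 and 42.2 CPM in the DMSO libraries. ENST00000534599.5, of 42 codons, had 62.0 CPM at 1 µM, against 32.7 and 30.9 CPM with DMSO. In both, the 1 µM library stood well above a close DMSO pair. Their log2 changes were 0.94 ± 0.08 (SE, edgeR adjusted p = 2.38e-18) and 0.96 ± 0.08 (SE, edgeR adjusted p = 3.84e-17). At 10 µM they had 128.2 and 75.4 CPM, and log2 changes of 1.55 and 1.25 against the same DMSO libraries.

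ENST00000546395.5, of 66 codons, had the largest rise by the naming rule, with 14.8 CPM at 1 µM against 7.58 and 6.77 CPM with DMSO, a log2 change of 1.05 ± 0.14 (SE, edgeR adjusted p = 3.89e-08). ENST00000430901.1, of 71 codons, had 19.1 CPM at 1 µM against 9.76 and 9.33 CPM with DMSO, a log2 change of 1.00 ± 0.12. ENST00000456492.1, of 60 codons, had 39.3 CPM at 1 µM against 22.8 and 21.5 CPM with DMSO, a log2 change of 0.83 ± 0.09. In each the 1 µM library was the highest of the 3 and the DMSO libraries were close. ENST00000409617.5, of 41 codons, lies close to ENST00000430901.1 in the table and rose by 0.83 ± 0.11. By the rule of 20 coding rows above, both belong to the same locus. ENST00000497899.6, of 242 codons, ENST00000557087.5, of 37 codons, and ENST00000647407.1, of 134 codons, complete the 12, at 0.92, 0.84 and 0.80. ENST00000647407.1 had 7.04 CPM at 1 µM, against 4.45 and 3.69 CPM with DMSO. It reached the mean of 5 CPM only through the 1 µM library. The DMSO libraries lay further apart in ENST00000557087.5, at 7.02 and 5.05 CPM, against 10.7 CPM at 1 µM, and its log2 change was 1.08 without DMSO 1 and 0.61 without DMSO 2. No file used here pairs these IDs with genes.

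**Figure D2:**
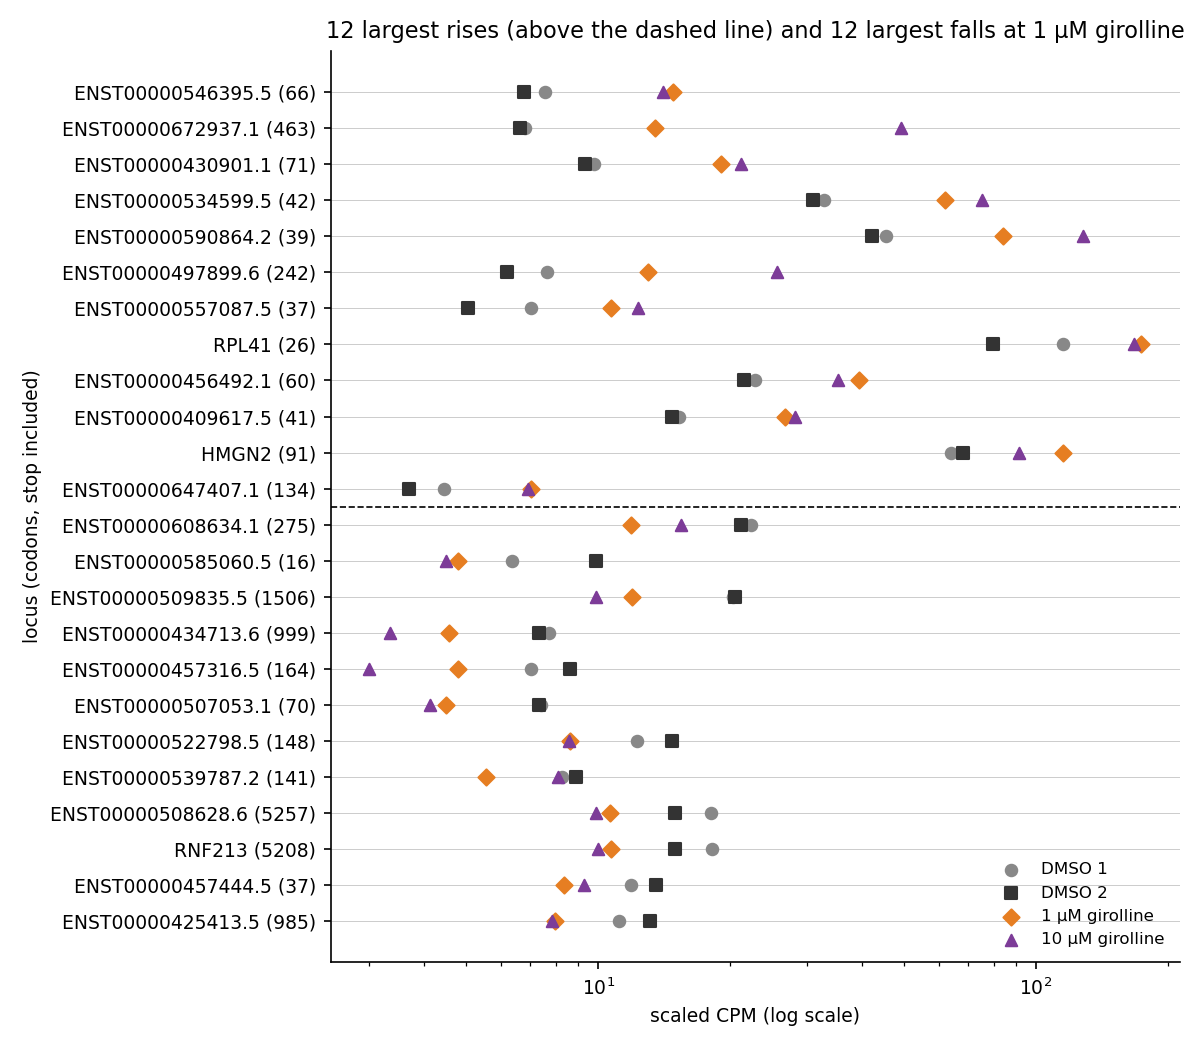
Scaled CPM on a log axis in each monosome library for the 12 loci with the largest rises (above the dashed line) and the 12 with the largest falls at 1 µM girolline, each with its codons in brackets. In every row the 1 µM point lies outside the DMSO pair, and its distance from the pair is larger than the gap within the pair in most rows but not in ENST00000585060.5.

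The named rises were AMD1, RPL41 and HMGN2. AMD1 encodes S-adenosylmethionine decarboxylase, which supplies the aminopropyl groups of spermidine and spermine. The row of ENST00000368882.8, the AMD1 coding region of 335 codons, had 13.1 CPM at 1 µM, against 6.58 and 6.40 CPM with DMSO, counts of 221 against 151 and 175. The 1 µM library stood at about double a close DMSO pair, with a log2 change of 1.01 ± 0.14 (SE, edgeR adjusted p = 9.25e-08). At 10 µM it had 48.1 CPM, a log2 change of 2.89 against the same DMSO libraries. ENST00000672937.1, of 463 codons and 4 coding rows away, had nearly the same counts and stood for this block among the 12, at 1.01 ± 0.14.

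Of 16 listed genes of eIF5A, hypusine and polyamine metabolism, 13 could be identified and were tested. AMD1 and SMS rose by edgeR, where 1.05% of all rows rose, and the list's median log2 change was 0.14. At an unadjusted p under 0.05, 4 were higher and 0 lower, where 6643 of the 55409 rows passed in either direction. SMS, spermine synthase, had 50.3 CPM at 1 µM, against 43.7 and 38.1 CPM with DMSO, a log2 change of 0.30 ± 0.08 (SE, edgeR adjusted p = 0.0348), which was 0.40 without DMSO 1 and 0.20 without DMSO 2. ODC1, ornithine decarboxylase, the entry enzyme of the pathway, had 72.8 CPM at 1 µM against 63.3 and 60.7 CPM with DMSO and was not called (log2 0.23 ± 0.08, edgeR adjusted p = 0.0944). At 10 µM ODC1 had 123.8 CPM, a log2 change of 1.00. EIF5A itself had 562.8 CPM at 1 µM against 522.8 and 545.2 CPM with DMSO (log2 0.08 ± 0.06, edgeR adjusted p = 0.644). DHPS and DOHH, the enzymes that make hypusine, had log2 changes of -0.01 ± 0.11 and 0.34 ± 0.14 and were not called, and OAZ1, the antizyme that targets ODC1 for breakdown, had -0.09 ± 0.07.

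HMGN2, a nucleosome-binding protein of the high mobility group, had 115.2 CPM at 1 µM, against 63.9 and 68.1 CPM with DMSO. Its DMSO libraries were close and the 1 µM library far above them, with a log2 change of 0.80 ± 0.07 (SE, edgeR adjusted p = 2.99e-16, DESeq2 adjusted p = 1.77e-08). At 10 µM it had 91.3 CPM, a log2 change of 0.47. RPL41, the shortest ribosomal protein, has 26 codons, and its ENST00000501597.3 row had 173.8 CPM at 1 µM, against 115.0 and 79.6 CPM with DMSO. All 3 libraries differed, with 1 µM highest, and the log2 change was 0.84 ± 0.08 (SE, edgeR adjusted p = 1.85e-15). It was 1.13 without DMSO 1 and 0.60 without DMSO 2, and DESeq2 did not call it (adjusted p = 0.265). Deposited lengths run 10 codons below coding lengths, so in a coding region this short the counted stretch may be much shorter than the whole.

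Ribosomal proteins were the largest group of named rises. Their mRNAs often start with an oligopyrimidine tract, through which the mTOR pathway and the protein LARP1 set how well they are translated. Of 77 cytosolic ribosomal protein genes tested, 47 rose and 0 fell at 1 µM, where 13.3% of all rows of at least 100 CPM rose and the median CPM of these genes was 389.8. Their median log2 change was 0.23, from -0.13 to 0.84. The 1 µM library lay above both DMSO libraries in 72 of the 77, against 37.5% of all tested rows, a share not matched to their depth. Summed over the 77 genes, footprints came to 35810 CPM at 1 µM, against 30760 and 30500 CPM with DMSO. With DESeq2 36 rose, and with DESeq2's size factors in edgeR 45. At 10 µM, 57 rose and 6 fell against the same DMSO libraries (16.6% and 15.7% of all rows), with a median of 0.35. Those shares are over rows of every depth, 38991 of them under 10 CPM, and are not matched to the depth of these genes.

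Of the small-subunit proteins, 24 of 31 rose, with a median log2 change of 0.25. RPS27 had 218.6 CPM at 1 µM, against 137.8 and 152.3 CPM with DMSO, a log2 change of 0.59 ± 0.06 (SE, edgeR adjusted p = 3.94e-12). RPS20 had 191.3 CPM at 1 µM, against 140.2 and 122.4 CPM with DMSO, at 0.54 ± 0.07. RPS29 had 170.2 CPM at 1 µM, against 122.2 and 113.2 CPM with DMSO, at 0.53 ± 0.07. In each, both DMSO libraries lay well below the 1 µM library. RPS6, the substrate of S6 kinase in the small subunit, had 544.7 CPM at 1 µM, against 413.1 and 396.1 CPM with DMSO (0.43 ± 0.06). RPS4X had the highest level of the list, 1567 CPM at 1 µM against 1311 and 1364 CPM with DMSO (0.23 ± 0.05, edgeR adjusted p = 0.00236). RPS15 did not pass the test, at 878.6 CPM against 862.2 and 842.1 CPM with DMSO, nor did RPS26, at 20.7 CPM against 25.3 and 20.2 CPM.

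Of the large-subunit proteins, 23 of 46 rose, with a median log2 change of 0.19. After RPL41, RPL37 rose most, with 598.7 CPM at 1 µM against 438.9 and 416.8 CPM with DMSO (0.48 ± 0.05, edgeR adjusted p = 4.4e-11). RPL13 had 743.6 CPM at 1 µM against 556.5 and 580.1 CPM with DMSO (0.39 ± 0.05). RPL4, the longest of the ribosomal proteins tested at 428 codons, rose as well, with 1086 CPM at 1 µM against 944.2 and 930.7 CPM with DMSO (0.21 ± 0.05, edgeR adjusted p = 0.00946). RPL6, RPL7A and RPL5 had log2 changes of 0.01, 0.05 and 0.05 and were not called. RPL9 had 404.0 CPM at 1 µM, below the 448.0 and 421.8 CPM with DMSO, and was not called (-0.11 ± 0.06). Genes of ribosomal proteins have many near-identical copies in the genome, and how the authors placed reads that match several sites is not given in the sources used here.

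Among ribosomal proteins the log2 changes were larger under 100 codons and alike in both longer classes. Of 9 genes under 100 codons, 8 rose, with a median log2 change of 0.43. From 100 to 199 codons 27 of 46 rose, and from 200 codons 12 of 22, both with a median of 0.21. Across the 77 genes, Spearman's rho between coding length and the log2 change was -0.316, and between coding length and the log2 difference of DMSO 2 over DMSO 1 it was 0.41. The DMSO libraries thus differed along the same axis, and its part in the relation was not tested. The genes share the libraries and are not independent replicates.

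**Figure D3:**
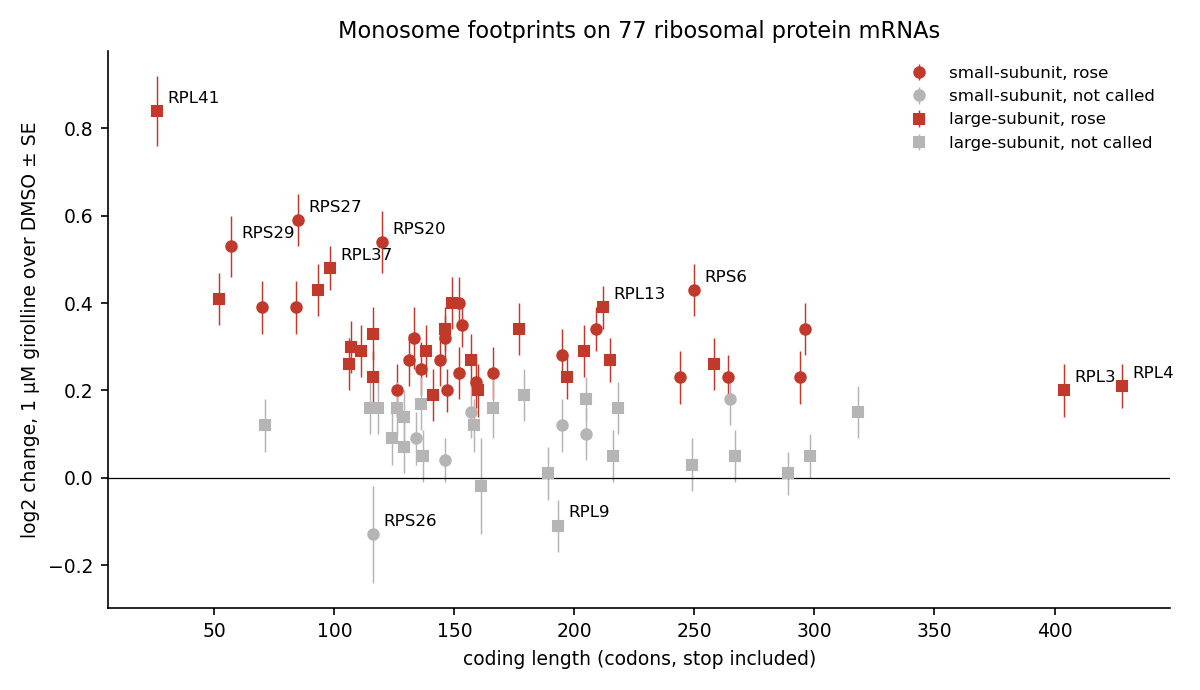
Log2 change of 1 µM girolline over DMSO, with its standard error from the edgeR fit as bars, against coding length in codons for 77 ribosomal protein genes (circles small subunit, squares large subunit, red called as rises, grey not called). RPL41 stands alone at 26 codons and 0.84, while RPL3 and RPL4, the longest, lie near 0.20.

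Windows of 30 bases at the annotated start are printed for 9 of the named rises, so that genes with the tract can be read beside genes without it. Of the 7 among them from the ribosomal protein and translation factor lists, RPL41, RPS27, RPS6 and TPT1 have a run of at least 5 bases, RPL13 a run of 2, and RPS29 and EEF1G none. They run from 15 bases before the annotated start to 15 bases from it, are taken from RefSeq (GRCh38.p14), and have in capitals the unbroken run of C and T from the first transcribed base where that base is C.
RPL41, chr12:56116618-56116647, plus strand: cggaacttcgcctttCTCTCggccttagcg
RPS27, chr1:153990747-153990776, plus strand: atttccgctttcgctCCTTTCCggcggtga
RPS29, chr14:49598696-49598725, minus strand: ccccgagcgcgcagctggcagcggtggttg
RPS6, chr9:19380222-19380251, minus strand: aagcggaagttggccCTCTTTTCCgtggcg
RPL13, chr16:89560642-89560671, plus strand: ggccctgctatcatcCCagagtgcattgcg
EEF1G, chr11:62573877-62573906, minus strand: tctcccgggcggcttactttgcggcagcgc
TPT1, chr13:45341169-45341198, minus strand: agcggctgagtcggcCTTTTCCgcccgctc
HMGN2, chr1:26472425-26472454, plus strand: acggcggcgggaggtgaaatccggttctaa
AMD1, chr6:110874770-110874799, plus strand: tcacgcagcgctctcgcttacacagtatgg

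An oligopyrimidine start was defined as a C at the first transcribed base followed by 4 bases that are each C or T, read on the transcribed strand at that position only. It was present in 42 of 61 ribosomal protein genes matched by symbol (68.9%), in 21 of 200 other identified genes (10.5%) and in 1429 of all 35116 promoters of the table (4.07%). Of the 42 ribosomal protein genes with this start, 26 rose and 0 fell, with a median log2 change of 0.24. Of the 19 without it at the annotated base, 9 rose and 0 fell, with a median of 0.19. Outside the ribosomal proteins, 2 of the 21 genes with the start rose, TPT1 and SLC25A6, and 2 fell, MATR3 and DDX5, with a median of -0.01. Of the 179 without it, 10 rose and 26 fell, with a median of -0.04. Part of these other genes was listed after values were seen. Of all rows of at least 100 CPM, 13.3% rose and 7.74% fell. The table holds 1 annotated start per gene and promoter, and the starts used in these cells were not analysed here.

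The translation factors with known oligopyrimidine mRNAs were listed apart from the ribosomal proteins. Of 14 tested, 2 rose and 0 fell, with a median log2 change of 0.03 and a median of 203.0 CPM. That is near the 13.3% of all rows of at least 100 CPM that rose. TPT1, the translationally controlled tumour protein, had 200.7 CPM at 1 µM, against 165.9 and 147.1 CPM with DMSO (0.36 ± 0.06, edgeR adjusted p = 4.93e-05). EEF1G, a subunit of the factor that recharges eEF1A, had 580.8 CPM at 1 µM, against 470.0 and 477.7 CPM with DMSO (0.29 ± 0.05, edgeR adjusted p = 0.000145). In both the 1 µM library was the highest of the 3. EEF1A1, the most abundant of the list, had 2916 CPM at 1 µM against 2761 and 2901 CPM with DMSO, and EEF2 1546 CPM against 1543 and 1576 CPM, and neither was called. EEF1D had the lowest change of the list, -0.25 ± 0.08, and was not called (edgeR adjusted p = 0.0845).

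Genes of fast response showed 1 call per list, and in each list 4 genes were higher and 0 lower at an unadjusted p under 0.05. Of 14 immediate early genes tested, JUN rose, where 1.05% of all rows rose, and the list's median log2 change was 0.23. The 1 µM library lay above both DMSO libraries in 11 of them, against 37.5% of all tested rows. JUN, a subunit of the transcription factor AP-1, had 71.2 CPM at 1 µM, against 58.2 and 58.5 CPM with DMSO (0.29 ± 0.08, edgeR adjusted p = 0.0189), which DESeq2 did not call (adjusted p = 0.125). At 10 µM JUN had 162.3 CPM, a log2 change of 1.47. EGR1, FOS and most others of the list had under 13 CPM in the 3 libraries compared, and a change of this size was not detectable in them at this depth. Of 10 short-lived regulators, MCL1, which protects from apoptosis, rose, where 1.05% of all rows rose. MCL1 had 58.7 CPM at 1 µM against 49.1 and 47.0 CPM with DMSO (0.29 ± 0.08, edgeR adjusted p = 0.0295). DESeq2 gave it no adjusted p. MYC, in both lists, had 58.0 CPM at 1 µM against 51.4 and 46.9 CPM with DMSO and did not pass (0.24 ± 0.08, edgeR adjusted p = 0.107).

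Of 15 tested genes of the integrated stress response, the programme that ATF4 drives when eIF2 is phosphorylated, 0 rose and ASNS fell. Over all rows 1.05% rose and 0.729% fell, and at 100 CPM or more, where ASNS lies, 7.74% fell. ASNS, asparagine synthetase, had 110.0 CPM at 1 µM, against 140.9 and 122.0 CPM with DMSO (-0.26 ± 0.07, edgeR adjusted p = 0.031). The DMSO libraries differed more than the gap to the nearer of them, and DESeq2 did not call it (adjusted p = 0.374). ATF4 itself had 11.1 CPM at 1 µM, against 11.1 and 10.5 CPM with DMSO (0.04 ± 0.14). Of 13 genes that sense or clear collided ribosomes, 0 were called by edgeR, where 1.05% of all rows rose and 0.729% fell, and at an unadjusted p under 0.05 1 was higher and 2 were lower. DESeq2 gave an adjusted p for 2 of the 13 and called 0. The nearest was PELO, a rescue factor for stalled ribosomes, with 17.03 CPM at 1 µM against 12.5 and 13.8 CPM with DMSO (0.37 ± 0.12, edgeR adjusted p = 0.102). GCN1, a sensor of collisions, had -0.17 ± 0.07 (edgeR adjusted p = 0.251). Of 13 polyproline-rich and actin regulators, listed because proline runs need eIF5A, 0 were called by edgeR and 1 was lower at an unadjusted p under 0.05, at a median of -0.11, while DESeq2 gave an adjusted p for 0 of them. They were shallow, with all but DIAPH1 under 30 CPM at 1 µM.

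Of 12 heat shock chaperones, 3 fell and 0 rose, where 7.74% of all rows of at least 100 CPM fell. HSP90AB1 had 844.3 CPM at 1 µM, against 989.5 and 1075 CPM with DMSO (-0.29 ± 0.05, edgeR adjusted p = 0.000145). HSPA8, the constitutive cytosolic HSP70, had 1062 CPM at 1 µM, against 1242 and 1251 CPM with DMSO (-0.23 ± 0.05, edgeR adjusted p = 0.00369). HSP90AA1 had 1410 CPM at 1 µM, against 1633 and 1634 CPM with DMSO (-0.21 ± 0.05, edgeR adjusted p = 0.00739). In all 3 the 1 µM library lay below both DMSO libraries, and DESeq2 called them too. The inducible HSPA1A had 1399 CPM at 1 µM against 1365 and 1393 CPM with DMSO, while at 10 µM it had 458.5 CPM, a log2 change of -1.59. HSPA1A and HSPA1B are near-identical copies, so their counts may be shared. Of 11 ER chaperones, 0 were called by edgeR and 1 was lower at an unadjusted p under 0.05, and DESeq2, which gave an adjusted p for 7 of them, called 0. Of these genes HSPA5 had the lowest log2 change, -0.16 ± 0.06.

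Among 22 histone genes identified, H2AC21 and H2AC20 rose and H4C3 and H4C8 fell, and the median was -0.02. These counts are near the shares of all rows of at least 100 CPM, 13.3% risen and 7.74% fallen. H2AC21 had 361.1 CPM at 1 µM, against 302.2 and 277.6 CPM with DMSO (0.32 ± 0.06, edgeR adjusted p = 0.000106). H4C3 had 517.2 CPM at 1 µM, against 634.2 and 591.7 CPM with DMSO (-0.24 ± 0.06, edgeR adjusted p = 0.00455). Histone genes of 1 type have nearly the same coding sequence, so a call on 1 copy may stand for several. Of 15 nuclear proteins with acidic stretches, SET, a histone chaperone, rose to 262.7 CPM at 1 µM, against 225.3 and 194.9 CPM with DMSO (0.32 ± 0.06, edgeR adjusted p = 0.000244). NCL, nucleolin, fell to 463.2 CPM, against 531.2 and 528.8 CPM with DMSO (-0.19 ± 0.06, edgeR adjusted p = 0.0465). DESeq2 called neither, at adjusted p = 0.283 for SET and 0.0815 for NCL.

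The largest falls spanned short and long coding regions. The 12 largest falls of the naming rule lay between -0.61 and -0.87 and ran from 16 to 5257 codons, 6 of them under 200 codons. ENST00000608634.1, of 275 codons, fell most, with 11.9 CPM at 1 µM against 22.4 and 21.3 CPM with DMSO (-0.87 ± 0.12, edgeR adjusted p = 1.23e-07). ENST00000509835.5, of 1506 codons, had 11.95 CPM at 1 µM against 20.4 and 20.5 CPM with DMSO (-0.77 ± 0.13, edgeR adjusted p = 6.12e-06). Both stood well below a close DMSO pair. ENST00000585060.5, of 16 codons, had 4.79 CPM at 1 µM, against 6.36 and 9.91 CPM with DMSO, and its DMSO libraries differed more than the gap to the nearer of them. RNF213, a giant ubiquitin ligase of 5208 codons, had 10.7 CPM at 1 µM, against 18.2 and 14.96 CPM with DMSO (-0.62 ± 0.14, edgeR adjusted p = 0.00216). The row next to it, ENST00000508628.6, of 5257 codons, had nearly the same counts, so these 2 of the 12 share reads.

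Among 26 identified proteins of over 2000 residues, 13 fell and 0 rose by edgeR, and the median log2 change was -0.24. At an unadjusted p under 0.05, 22 were lower and 1 was higher. The higher one was TTN, with 18 counts at 1 µM against 15 and 9 counts with DMSO. Of all rows from 10 to 100 CPM 1.53% fell, and of those of at least 100 CPM 7.74%, and the median of this list was 58.8 CPM. In 25 the 1 µM library lay below both DMSO libraries, against 36.9% of all tested rows, a share not matched to their depth. Part of the list was picked because its rows had been called, so none of these counts supports its direction. AHNAK, a giant scaffold protein, had 22.9 CPM at 1 µM, against 33.6 and 33.3 CPM with DMSO (-0.55 ± 0.10, edgeR adjusted p = 8.91e-05). MDN1, an ATPase of large-subunit assembly, had 39.5 CPM at 1 µM, against 49.6 and 53.1 CPM with DMSO (-0.38 ± 0.09). DYNC1H1, the dynein heavy chain, had 98.01 CPM at 1 µM, against 119.1 and 131.2 CPM with DMSO (-0.35 ± 0.07). In these 3 the 1 µM library was the lowest. PRKDC, the catalytic subunit of DNA-dependent protein kinase, had 328.5 CPM at 1 µM, against 401.9 and 410.0 CPM with DMSO (-0.31 ± 0.06, edgeR adjusted p = 0.000238). SPTBN1 and HERC2, of 2365 and 4835 codons, were not called, at -0.04 and -0.05. DESeq2 gave an adjusted p for 13 of the 26, of which 5 fell.

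Of 14 further proteins, mostly abundant and listed after values were seen, 7 fell, SLC25A6 rose and 6 were not called. Of all rows of at least 100 CPM, 13.3% rose and 7.74% fell. CLTC, the clathrin heavy chain, had 269.1 CPM at 1 µM, against 337.4 and 346.4 CPM with DMSO (-0.35 ± 0.06, edgeR adjusted p = 3.28e-05, DESeq2 adjusted p = 0.00138). TOP2A, VCP, MYH9, MATR3 and DDX5 fell by 0.20 to 0.31 on the log2 scale, and IBTK, at 15.9 CPM against 21.4 and 22.5 CPM with DMSO, fell by 0.47. Of 7 glycolytic enzymes, a list made after values were seen, ENO1, LDHB and PGK1 fell and 0 rose, where 7.74% of all rows of at least 100 CPM fell. At an unadjusted p under 0.05 the counts were the same, 3 and 0. PGK1 had 238.4 CPM at 1 µM, against 287.8 and 286.6 CPM with DMSO (-0.27 ± 0.06, edgeR adjusted p = 0.00349). ENO1 had 1561 CPM at 1 µM, against 1796 and 1829 CPM with DMSO (-0.22 ± 0.05, edgeR adjusted p = 0.0054). GAPDH, at 1799 CPM against 1857 and 1922 CPM with DMSO, and TPI1 and LDHA were not called. Of 7 actin and tubulin genes, 8 subunits of the CCT chaperonin and 5 of the MCM helicase, 0 were called by edgeR or DESeq2, and 1 gene of each list was lower at an unadjusted p under 0.05. Their medians were -0.07, -0.05 and -0.11. Of 13 other short proteins, of 45 to 262 codons and listed after values were seen, HMGN2, AKIRIN2 and PPIA rose. Of all rows of at least 100 CPM 13.3% rose, and the list's median was 175.3 CPM. Most of these genes have over 100 codons, so the list does not test coding regions under 100 codons. PFN1, CFL1 and TMSB10, of 45 to 167 codons, had log2 changes of 0.07 to 0.11 and were not called. TMSB4X, of 45 codons, and STMN1, of 150 codons, had -0.29 and -0.14 and were not called either. By sign, 9 of the 13 were positive and 4 negative. AKIRIN2, an adaptor for nuclear import of the proteasome, had 29.5 CPM at 1 µM, against 20.4 and 18.2 CPM with DMSO (0.62 ± 0.10, edgeR adjusted p = 8.22e-06).

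**Figure D4:**
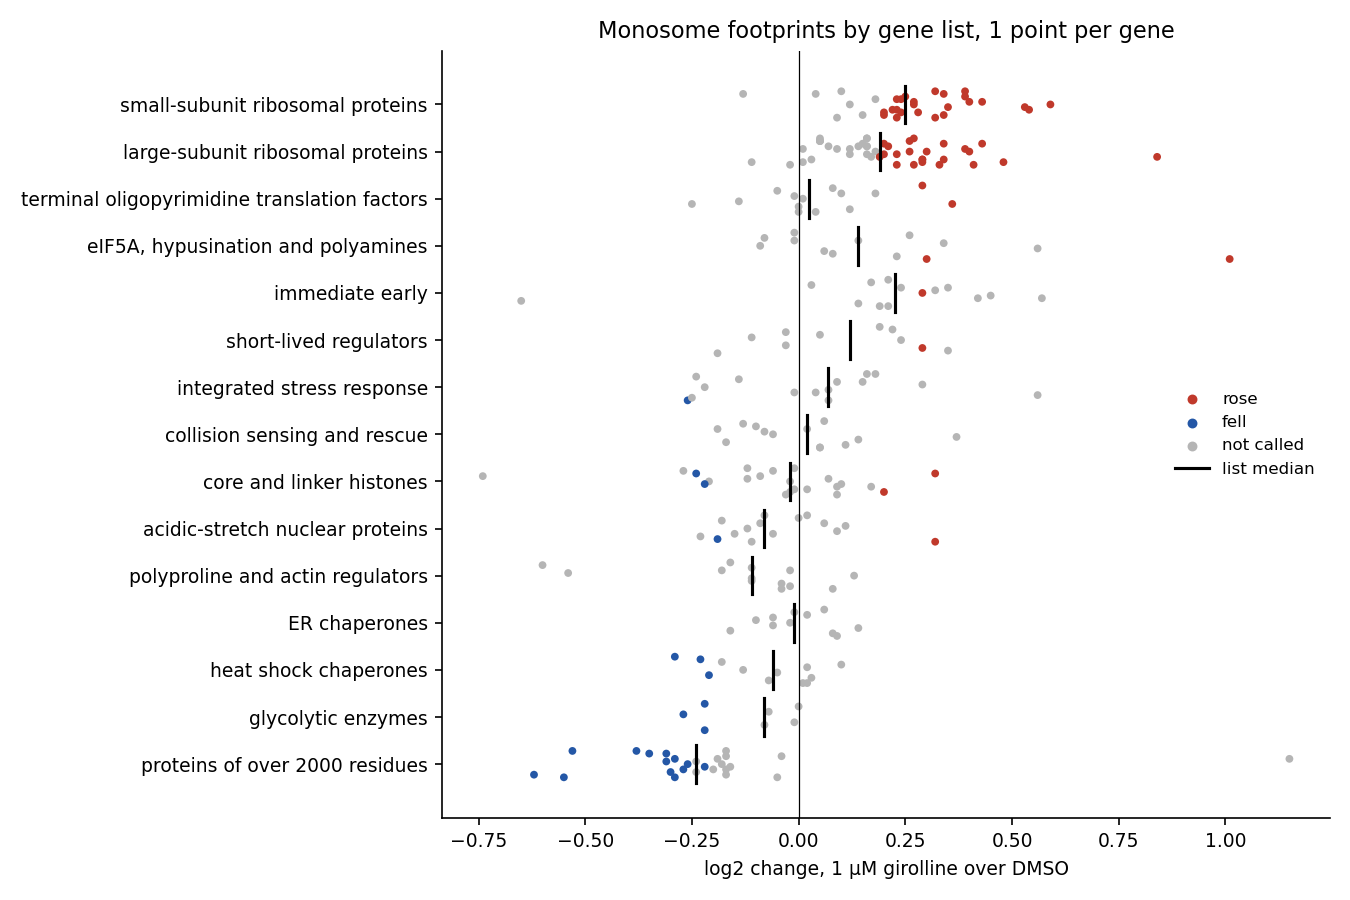
Log2 change of 1 µM girolline over DMSO for each identified gene, 1 point per gene and 1 line per gene list, in red where it rose, blue where it fell and grey where it was not called, with the list median as a black bar. Ribosomal proteins lie mostly to the right of 0 and proteins of over 2000 residues to its left, and most other lists straddle 0. The grey point at 1.15 is TTN, which had at most 1.07 CPM in the 3 libraries compared.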

How the data were processed

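Monosome footprints were measured in 4 libraries: 1 at 1 µM girolline, 1 at 10 µM and 2 with DMSO. For each library the authors deposited raw, unnormalized counts of reads by Ensembl transcript, with a length column taken to lie 10 codons below the coding length. Per the labels' protocols, lysates were digested with RNase I, ribosomes were pelleted, and fragments were size-selected, ligated to a linker and depleted of rRNA. Per the submitters' processing notes, the build was hg38 and the tools CASAVA 1.8 and STAR 2.7.0a. The counter, its annotation and its treatment of reads with several matches are not given in the sources used here.

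Rows without a coding length held 0 counts and were dropped, and rows with identical counts were merged. The test was that of edgeR 4.0.16 under R 4.3.3 (TMM, filterByExpr, quasi-likelihood test, Benjamini-Hochberg over all rows, FDR of 0.05) in 3 groups with 1 residual degree of freedom, from the DMSO pair. The lone library of each dose is thus assumed to vary like that pair, whose chi-square per degree of freedom was 1.69. SE is the log2 change divided by the square root of the F statistic. The fit was also run on simulated data, whose outcome is not reported here. Alternatives were DESeq2 1.42.0, its size factors, other filters, merging, 1 row per block of 10 coding rows, and leaving out each DMSO library.

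Loci were named by a rule: called, at least 5 CPM on average, outside the DMSO range, 1 row per block, the 12 largest rises and falls, plus called and abundant members of gene lists. The gene names are not taken from a reference. They were recalled from memory and checked by length, with 1 row kept per gene, the one of highest mean CPM. Of the IDs, 17 for 15 genes were entered after their length and value had been seen, among them AMD1, RPL41, HMGN2, AHNAK, RNF213, TOP2A and VCP. The length was no independent check on these IDs. Without these, 377 of 398 IDs matched (94.7%), and the 21 that did not were left out. Members and lists were chosen with earlier results of these data known, and the lists of glycolytic enzymes, cytoskeleton, CCT, MCM, proteins over 2000 residues, other short and other abundant proteins were made after values were seen. RNA-seq and disome values, codon and protein features were not analysed here, and 1 listed marker gene is not reported here. Promoter sequences are RefSeq's, from GRCh38.p14.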

Additional observations from a re-analysis of the deposited data

How the results depend on the processing

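DESeq2 called 180 rises and 78 falls at 1 µM in place of 580 and 404, so 69.8% of its calls were rises, against 58.9% by edgeR. It gave an adjusted p for 2771 of the 55409 rows only, by its own filter on low means. With 1 row per block of 10 coding rows, 129 rose and 66 fell of 9099 tested. Size factors, both other filters, the fit of 3 libraries and unmerged rows gave 569 to 710 rises and 346 to 470 falls. The counts over 1.5-fold above and below DMSO, 16 and 4, ran from 27 to 64 and from 16 to 28 when DMSO 2 or DMSO 1 was left out, since 1 library then sets the bar, and were 5 and 0 at a mean of at least 50 CPM. With the 10 CPM mean taken over the DMSO libraries alone, a setting chosen after seeing the data, they were 14 and 4. Over the gene lists, edgeR called 90 of 305 genes, DESeq2 56, with no adjusted p for 101, all merged rows of the lists 94 and edgeR with DESeq2's size factors 92. Of 111 named or called log2 changes, DESeq2 gave an adjusted p for 81, of which 24 lost their call, and none for 30. All 111 were tested with its size factors, where RPL29 and RPS25 lost theirs, and with the 3 libraries alone, where 0 did. Without DMSO 1, 18 moved by over 1 SE, and without DMSO 2, 19, with 0 changes of sign in both. Leaving out a DMSO library leaves no residual degree of freedom, so these are values with no test and the calls could not be repeated. No paired analysis was possible because each girolline dose has 1 library, so the groups share fewer than 2 replicate numbers. Depth limits calls under 10 CPM, and the 1 µM library is the shallowest.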

Other observations

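Among called rows under the 5 CPM of the naming rule, 74 rose and 27 fell, and several rest on 1 library. ENST00000369699.8, of 1223 codons, had 45 counts at 1 µM, against 1 and 0 counts in the DMSO libraries, and 0 counts at 10 µM. ENST00000216274.10, of 519 codons, had 0 counts at 1 µM, against 40 and 2 counts in DMSO 1 and DMSO 2, and 3 counts at 10 µM. ENST00000334151.3, of 73 codons, had 0 counts at 1 µM, against 30 and 1 counts with DMSO, and 1 count at 10 µM. In the first the 1 µM library stands alone, and in the others DMSO 1 does.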
